A study of Mus musculus with 10 samples.

Results

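The Hox genes encode homeodomain transcription factors that set positional identity along the body axis. The genes annotated as Hoxa, Hoxb, Hoxc or Hoxd followed by a paralog number were taken as members, and 37 of 19938 named genes measured on the array met that rule. They comprised 10 Hoxa, 9 Hoxb, 9 Hoxc and 9 Hoxd genes, each read by a single probe set. Hoxb8 shared its probe set with Hoxb7 and was not analysed here. Whole oviducts came from prepubertal mice of both genotypes, aged 21 to 23 days when hormone treatment began, to find genes that depend on progesterone receptor. PRKO mice were homozygous for a lacZ insertion that disrupts both isoforms of the progesterone receptor gene Pgr throughout the animal, and PR+/- mice carried 1 such allele and are fertile. All mice of both genotypes were given 5 IU of equine chorionic gonadotropin (eCG) to grow follicles. Ovulation was then triggered with 5 IU of human chorionic gonadotropin (hCG), and oviducts were collected 8 h after hCG. Oviducts of 3 animals made up the pool on each Affymetrix array, for a total of 15 animals on 5 arrays in either genotype. The arrays read separate pools, so a p-value here reflects the variation from pool to pool, and in a whole organ a lower signal cannot be told apart from fewer cells that express the gene.

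Hox genes lie in 4 clusters, in the mouse Hoxa on chromosome 6, Hoxb on 11, Hoxc on 15 and Hoxd on 2, and genes with the same number in different clusters are paralogs that arose by duplication of an ancestral cluster. Within a cluster, genes of low number lie at one end and act anteriorly, and genes of high number lie at the other end and act posteriorly, so that the order along the chromosome mirrors the order along the body. In the female tract, which forms from the Müllerian duct, Hoxa9 is described in the oviduct, Hoxa10 in the uterus, Hoxa11 in the uterus and cervix and Hoxa13 in the upper vagina. Loss of Hoxa10 or Hoxa11 in mice causes uterine defects and infertility, and both genes respond to sex steroids in the uterus.

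The data showed a lower signal of a run of neighbouring Hoxa genes in PRKO oviducts. Hoxa3, Hoxa4, Hoxa5, Hoxa6 and Hoxa7, which follow each other in the mouse gene order, all fell, by 1.33-fold for Hoxa4 to 2.24-fold for Hoxa3, and 1 gene outside the run, Hoxc5, fell 1.44-fold. Their 5 Hoxb paralogs had log2 differences of -0.08 to 0.17 and none passed the test. The 4 measured Hoxc genes of groups 4 to 8, Hoxc5 among them, all had negative log2 differences, with a median of -0.35. Of these, 3 had an unadjusted limma p under 0.05. The posterior genes of the tract code, Hoxa9 to Hoxa13, did not pass either. In limma, with p-values adjusted over all 19938 genes by the Benjamini-Hochberg method and a threshold of 0.05, 6 of 37 Hox genes fell (16.2%), none rose and 31 did not pass. The shares over all genes were 3.87% lower and 1.09% higher. The annotated span of Hoxa3 covers Hoxa4, Hoxa5 and Hoxa6, so these members may share transcripts and are not fully independent. With p not adjusted and under 0.05, 9 Hox genes were lower and 3 higher, where 11.1% and 10.1% of all genes were. Counts for the shorter gene lists below are to be read beside these shares. The median log2 difference, PRKO minus PR+/-, was -0.03 over the Hox genes, 0.03 over all genes and 0.01 over the 32 Hox genes outside the Hoxa run. Of these 6 calls, those of Hoxa4 and Hoxc5 lay nearest the threshold. They were lost in 11 and 9 of 22 alternative settings, among them the removal of any 1 of several arrays.

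The start regions of 4 of the 5 Hoxa genes that fell are shown because these neighbours moved together. They are RefSeq sequences of the GRCm38.p6 build, written 5′ to 3′ from 250 bases before to 50 bases after the annotated start of each gene. Capitals mark TAAT, or its reverse complement ATTA, the core to which homeodomains bind. That core occurs on either strand in 58.0% of 32851 promoters in the same table.
Hoxa3 (chr6:52213018-52213317, minus strand): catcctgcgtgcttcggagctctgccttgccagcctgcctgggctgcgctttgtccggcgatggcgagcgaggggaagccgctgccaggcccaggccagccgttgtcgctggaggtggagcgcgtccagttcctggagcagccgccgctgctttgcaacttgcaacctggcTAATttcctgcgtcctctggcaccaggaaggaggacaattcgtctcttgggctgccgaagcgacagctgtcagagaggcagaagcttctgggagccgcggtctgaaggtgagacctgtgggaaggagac
Hoxa5 (chr6:52204538-52204837, minus strand): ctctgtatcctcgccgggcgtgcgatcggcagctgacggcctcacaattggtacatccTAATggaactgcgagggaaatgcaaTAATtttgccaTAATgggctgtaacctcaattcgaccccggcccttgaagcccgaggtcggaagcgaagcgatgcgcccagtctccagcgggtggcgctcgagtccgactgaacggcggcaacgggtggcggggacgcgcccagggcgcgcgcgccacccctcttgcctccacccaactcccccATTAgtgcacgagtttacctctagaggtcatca
Hoxa6 (chr6:52208623-52208922, minus strand): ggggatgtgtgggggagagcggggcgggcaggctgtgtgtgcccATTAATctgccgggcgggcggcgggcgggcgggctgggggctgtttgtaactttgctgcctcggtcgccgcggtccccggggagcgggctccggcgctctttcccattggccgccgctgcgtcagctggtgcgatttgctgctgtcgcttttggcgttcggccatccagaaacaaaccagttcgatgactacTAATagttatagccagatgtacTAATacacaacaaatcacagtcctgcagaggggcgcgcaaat
Hoxa7 (chr6:52218524-52218823, minus strand): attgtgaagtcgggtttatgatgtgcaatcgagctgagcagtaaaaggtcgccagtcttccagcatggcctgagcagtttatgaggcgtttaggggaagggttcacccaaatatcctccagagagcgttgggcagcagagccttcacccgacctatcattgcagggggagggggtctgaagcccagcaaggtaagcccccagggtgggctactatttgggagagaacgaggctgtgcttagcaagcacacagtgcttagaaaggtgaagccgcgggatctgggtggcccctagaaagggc
The Hoxa5 and Hoxa6 windows each held 4 matches, which overlap in 1 place in Hoxa6, the Hoxa3 window held 1 and the Hoxa7 window none. The listed start of Hoxa3 lies between those of Hoxa6 and Hoxa7, and its annotated span covers Hoxa4, Hoxa5 and Hoxa6. The windows differed in CpG dinucleotides, with 20 in Hoxa3, 29 in Hoxa5, 26 in Hoxa6 and 9 in Hoxa7, against a median of 7 over all promoters. The letters AGAACA, the half-site that progesterone and glucocorticoid receptors share, searched on both strands, were in none of these 4 windows. They were in the windows of Hoxa9 and Hoxa11 among 21 Hox genes with a listed promoter, and in 19.0% of all promoters. The letters AGGTCA, the half-site of retinoic acid receptors and several other nuclear receptors, searched likewise, were found in 7 of the 21 Hox genes, Hoxa5 among those shown, and in 16.3% of all promoters. These matches describe letters in a short window and no binding was measured.

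The arrays differed in ways that touch the Hox values. Pgr had a log2 signal of 6.36 ± 0.037 in PRKO oviducts and 7.42 ± 0.11 in PR+/- oviducts (SD, n = 5 each), with no overlap between genotypes, in the direction of the labels (log2 difference -1.06, limma adjusted p = 1.00e-06). PRKO pools varied more, with a median SD over genes of 0.167 in PRKO and 0.113 in PR+/-, and the SD was larger in PRKO for 28 of 37 Hox genes and for 74.7% of all genes. The spread of signal over an array, as its interquartile range, lay between 3.13 and 3.42 in PRKO and between 3.37 and 3.48 in PR+/-. It was lower on most PRKO arrays, so a fit that also holds it cannot fully separate it from genotype. The ovarian enzyme gene Cyp11a1 stood out on PRKO replicate 3 and PR+/- replicate 4, at log2 signals of 7.10 and 7.04. The lowest mean correlation with the other arrays of its genotype was that of PRKO replicate 5 and then of PRKO replicate 1. Several results below are also given without some of these arrays.

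The level of Hox signal followed paralog number in both genotypes. The median over named genes was between 5.62 and 5.71 on the log2 scale on the 10 arrays, and genes were sorted by whether they stayed on one side of it. Among the 14 genes of paralog groups 4 to 8, 11 lay above that median on every array and none below it on every array. Among the 16 genes of groups 9 to 13, none lay above it on every array and 14 lay below it on every array. Among the 7 genes of groups 1 to 3, 1 lay above, Hoxb3, and 5 lay below. Signals of different probe sets carry different affinities, the table holds no background values, and a dim signal can lie near background, so these levels sort the genes into bands and do not rank transcripts.

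**Figure D1:**
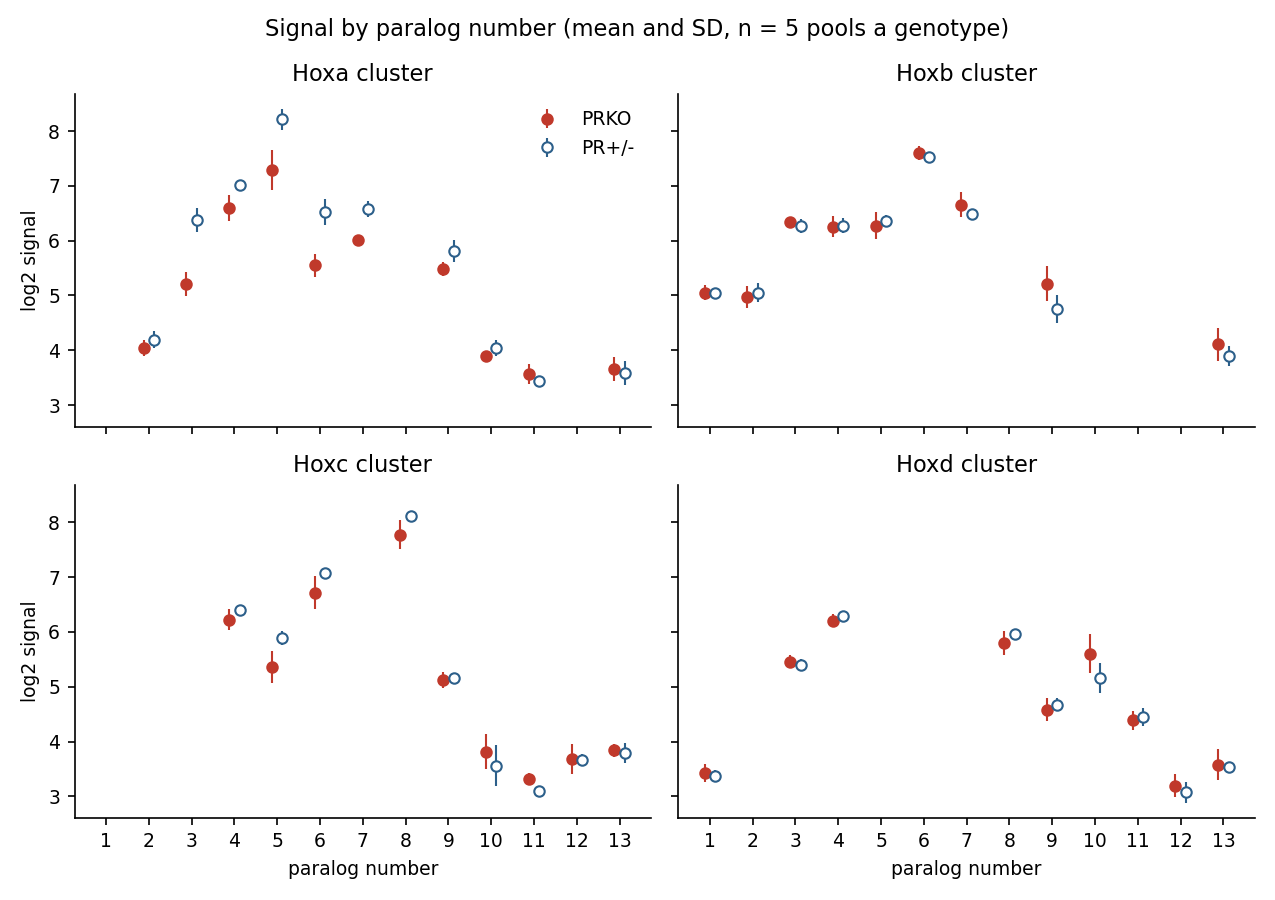
Mean log2 signal (vertical axis) of each Hox gene by paralog number (horizontal axis) in the 4 clusters, with PRKO as filled points left of PR+/- as open points and bars of 1 SD (n = 5 pools a genotype). The highest means belong to paralog groups 4 to 8, up to 7.77 in PRKO and 8.22 in PR+/-, and groups 11 to 13 have low means in every cluster that holds them, none above 4.39 in PRKO or 4.45 in PR+/-.

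Hoxa3, a gene needed for thymus, parathyroid and carotid body development, had the largest change. Its log2 signal was 4.86, 5.41, 5.36, 5.22 and 5.19 in PRKO oviducts and 6.15, 6.64, 6.39, 6.15 and 6.51 in PR+/- oviducts. Every PRKO array lay below every PR+/- array, and the closest values, those of PRKO replicate 2 and PR+/- replicate 1, were 0.74 apart. The log2 difference was -1.16 ± 0.12 (SE, n = 5 against 5, limma adjusted p = 4.17e-05), a 2.24-fold lower signal. It was called in all 22 alternative settings tried, with log2 differences of -1.26 to -1.04.

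Hoxa4, a gene that helps to pattern neck vertebrae, had the smallest change of the run. Its signal was 6.28, 6.71, 6.84, 6.43 and 6.74 in PRKO oviducts and 6.91, 6.97, 7.03, 7.02 and 7.12 in PR+/- oviducts. The genotypes did not overlap, but PRKO replicate 3 came within 0.07 of the lowest PR+/- array, replicate 1. The log2 difference was -0.41 ± 0.10 (SE, limma adjusted p = 0.0336). The call was lost in 11 of 22 alternative settings, among them the removal of any 1 PR+/- array or of PRKO replicate 1 or 4 (adjusted p 0.0516 to 0.0837), quantile normalization (0.0688) and cyclic loess normalization (0.0628). It was also lost without both PRKO replicates 1 and 5. The log2 difference stayed between -0.52 and -0.33 in all settings.

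Hoxa5, which is required for normal lung and airway development, gave the highest mean signal of the Hox probe sets in PR+/- oviducts. Its signal was 6.78, 7.53, 7.64, 7.43 and 7.03 in PRKO oviducts and 8.18, 8.40, 8.23, 7.91 and 8.35 in PR+/- oviducts. All PRKO arrays lay below all PR+/- arrays, and PRKO replicates 1 and 5 were the lowest of the 10. The log2 difference was -0.93 ± 0.15 (SE, limma adjusted p = 0.00203), 1.91-fold lower. Without PRKO replicates 1 and 5 it was -0.68 (adjusted p = 0.00504). In a fit that also held the interquartile range of every array it was -0.75 and not called (adjusted p = 0.099997).

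Hoxa6, the immediate neighbour of Hoxa5 and a patterning gene of the thoracic axis, changed by a similar amount. Its signal was 5.29, 5.55, 5.72, 5.79 and 5.39 in PRKO oviducts and 6.57, 6.82, 6.48, 6.16 and 6.55 in PR+/- oviducts. The genotypes were 0.37 apart at their closest, between PRKO replicate 4 and PR+/- replicate 4. It differed by a log2 value of -0.97 ± 0.12 (SE, limma adjusted p = 2.83e-04), 1.95-fold lower, and the gene was called in all 22 alternative settings.

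Hoxa7, a central gene of the cluster that acts in the vertebral column and in blood progenitors, closed the run. Its signal was 6.04, 6.01, 5.92, 6.04 and 6.06 in PRKO oviducts and 6.60, 6.81, 6.48, 6.41 and 6.58 in PR+/- oviducts. The 5 PRKO values lay within a span narrower than that of the PR+/- values (SD 0.055 in PRKO and 0.15 in PR+/-), and the genotypes did not overlap. PRKO minus PR+/- was -0.56 ± 0.081 (SE, limma adjusted p = 7.41e-04), 1.48-fold lower, and it was called in all 22 alternative settings. Without PRKO replicates 1 and 5 the log2 difference was -0.83 for Hoxa6 and -0.59 for Hoxa7, and without both arrays of high ovarian signal it was -1.10 for Hoxa6 and -0.58 for Hoxa7.

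**Figure D2:**
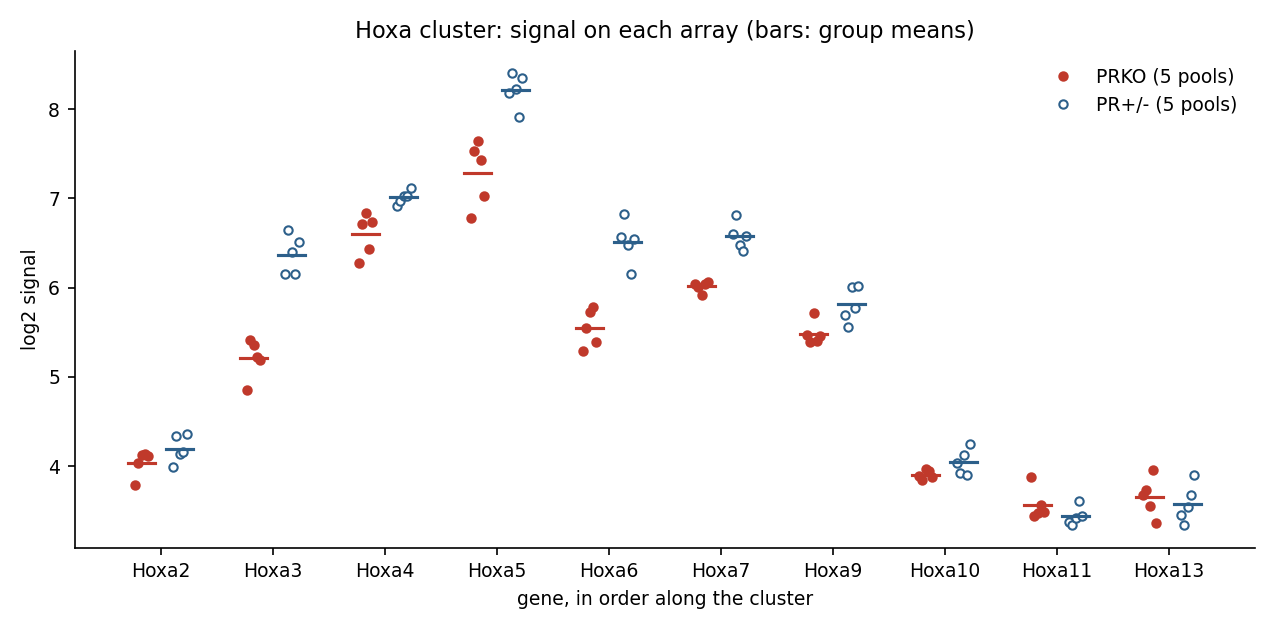
Log2 signal (vertical axis) of the 10 measured Hoxa genes in their order along the cluster (horizontal axis), with 1 point per array, PRKO filled on the left and PR+/- open on the right, and a bar at each group mean. The genotypes separate for Hoxa3, Hoxa4, Hoxa5, Hoxa6 and Hoxa7 and overlap for the other 5 genes.

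The 5 genes of the run were the members whose genotypes did not overlap, which is 13.5% of the 37 Hox genes, where 7.20% of all genes did not overlap, with PRKO lower for 5.06% and higher for 2.15%. The order of measured genes around the run in the mouse gene table is Hoxa2, Hoxa3, Hoxa4, Hoxa5, Hoxa6, Hoxa7 and Hoxa9. The annotated span of Hoxa3 also overlaps the RNA genes Hoxaas2 and Hoxaas3, and no gene overlaps Hoxa7. Which transcripts the probes of Hoxa3, Hoxa4, Hoxa5 and Hoxa6 read was not examined here, so these 4 signals may share transcripts and are not fully independent. Hoxaas2, the RNA gene at the edge of Hoxa3, had a log2 difference of 0.05 (limma adjusted p = 0.779). Its mean log2 signal was dim, at 3.92 in PRKO and 3.88 in PR+/- oviducts, so a change in it could be missed.

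The genes at the ends of the run did not pass. Hoxa2, which patterns the hindbrain and the second branchial arch, had signals of 3.78, 4.03, 4.12, 4.13 and 4.11 in PRKO oviducts and 3.99, 4.34, 4.14, 4.16 and 4.36 in PR+/- oviducts, and the genotypes overlapped (log2 difference -0.16 ± 0.094, SE, limma adjusted p = 0.356). Hoxa9, the member assigned to the oviduct in the tract code, had signals of 5.46, 5.39, 5.71, 5.40 and 5.45 in PRKO oviducts and 5.69, 5.56, 6.01, 5.78 and 6.02 in PR+/- oviducts. Its PRKO values lay at the low end, with 4 PRKO arrays below all PR+/- arrays and PRKO replicate 3 inside the PR+/- span. The log2 difference was -0.33 ± 0.10 (SE, limma adjusted p = 0.0798), with a 95% interval of -0.55 to -0.11. Hoxa9 stayed uncalled in 19 of 22 alternative settings, with limma adjusted p up to 0.191. It was called in 3: when arrays were centred on their medians (adjusted p = 0.0478), without the dimmest 50% of probe sets (0.0412) and with the replicate number as a block (0.0453).

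The uterine and vaginal members of the tract code were dim on every array. Hoxa10 had signals of 3.89, 3.84, 3.96, 3.95 and 3.88 in PRKO oviducts and 4.03, 3.92, 4.12, 3.89 and 4.24 in PR+/- oviducts, with overlapping genotypes. Its log2 difference was -0.14 with a 95% interval of -0.31 to 0.03 (limma adjusted p = 0.332). Hoxa11 had signals of 3.87, 3.44, 3.47, 3.57 and 3.49 in PRKO oviducts and 3.37, 3.34, 3.42, 3.61 and 3.44 in PR+/- oviducts, where PRKO replicate 1 was the highest of the 10. Its log2 difference was 0.13 with an interval of -0.07 to 0.33 (adjusted p = 0.429). Hoxa13 ran from 3.36 to 3.95 in PRKO oviducts and from 3.34 to 3.90 in PR+/- oviducts (log2 difference 0.08, interval -0.18 to 0.34). No difference between the genotypes was detectable for these 3 genes at this number of arrays, and near background an array understates a change.

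Of the 4 measured Hoxc genes of groups 4 to 8, 1 fell. Hoxc5, a member of the cervical and thoracic domain, had signals of 5.00, 5.56, 5.27, 5.75 and 5.23 in PRKO oviducts and 5.85, 5.96, 6.04, 5.70 and 5.86 in PR+/- oviducts. PRKO replicate 4 lay inside the PR+/- span, just above PR+/- replicate 4, and the other PRKO arrays lay below all PR+/- arrays. The log2 difference was -0.52 ± 0.12 (SE, limma adjusted p = 0.0262), 1.44-fold lower. The call was lost in 9 of 22 alternative settings, among them the removal of PR+/- replicate 1, 2, 3 or 5 or of PRKO replicate 3 or 5 (adjusted p 0.0565 to 0.0722). Without both arrays of high ovarian signal the adjusted p was 0.0700, and without PRKO replicates 1 and 5 the log2 difference was -0.36 (adjusted p = 0.115).

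Hoxc6, expressed in the thorax and mammary gland, had signals of 6.30, 6.50, 7.03, 6.86 and 6.86 in PRKO oviducts and 7.01, 7.07, 7.14, 7.09 and 7.05 in PR+/- oviducts. PRKO replicate 3 reached into the tight PR+/- span and the others lay below it (log2 difference -0.36 ± 0.12, SE, limma adjusted p = 0.105). Hoxc8, which specifies thoracic vertebrae and motor neurons, had signals of 7.65, 8.00, 8.09, 7.62 and 7.49 in PRKO oviducts and 8.08, 8.15, 8.24, 8.01 and 8.11 in PR+/- oviducts. Here too PRKO replicate 3 lay inside the PR+/- span (log2 difference -0.35 ± 0.11, SE, adjusted p = 0.0916). Without PRKO replicate 3 both were called, with adjusted p of 0.0497 for Hoxc6 and 0.0344 for Hoxc8. Without PRKO replicates 1 and 5 the log2 differences were -0.27 for Hoxc6 (adjusted p = 0.201) and -0.21 for Hoxc8 (adjusted p = 0.308). With the interquartile range in the fit, Hoxc8 was -0.21 (adjusted p = 0.608). Hoxc4 had a log2 difference of -0.18 (adjusted p = 0.288), and the means of all 4 were lower in PRKO.

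No Hoxb gene of the anterior and central groups passed the test. Hoxb3, Hoxb4, Hoxb5, Hoxb6 and Hoxb7 had mean log2 signals of 6.25 to 7.61 in PRKO oviducts and 6.26 to 7.53 in PR+/- oviducts, and all 5 lay above the median named gene on all arrays. Hoxb5, the paralog of Hoxa5, had signals of 6.33, 6.46, 6.41, 6.33 and 5.85 in PRKO oviducts and 6.31, 6.31, 6.28, 6.34 and 6.55 in PR+/- oviducts. Hoxb6, the paralog of Hoxa6, had signals of 7.49, 7.60, 7.59, 7.82 and 7.54 in PRKO oviducts and 7.54, 7.51, 7.58, 7.41 and 7.63 in PR+/- oviducts. The genotypes overlapped for all 5, and 95% intervals of the log2 differences lay within -0.31 to 0.38. Hoxb1 and Hoxb2, which pattern the hindbrain, had log2 differences of 0.01 and -0.08.

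Hoxd genes of low and central number also did not pass. Hoxd1, Hoxd3, Hoxd4 and Hoxd8 had log2 differences of 0.05, 0.06, -0.09 and -0.16, with limma adjusted p of 0.385 to 0.771. Hoxd4 was narrow in both groups, with 5.997 to 6.31 in PRKO and 6.21 to 6.36 in PR+/- oviducts.

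**Figure D3:**
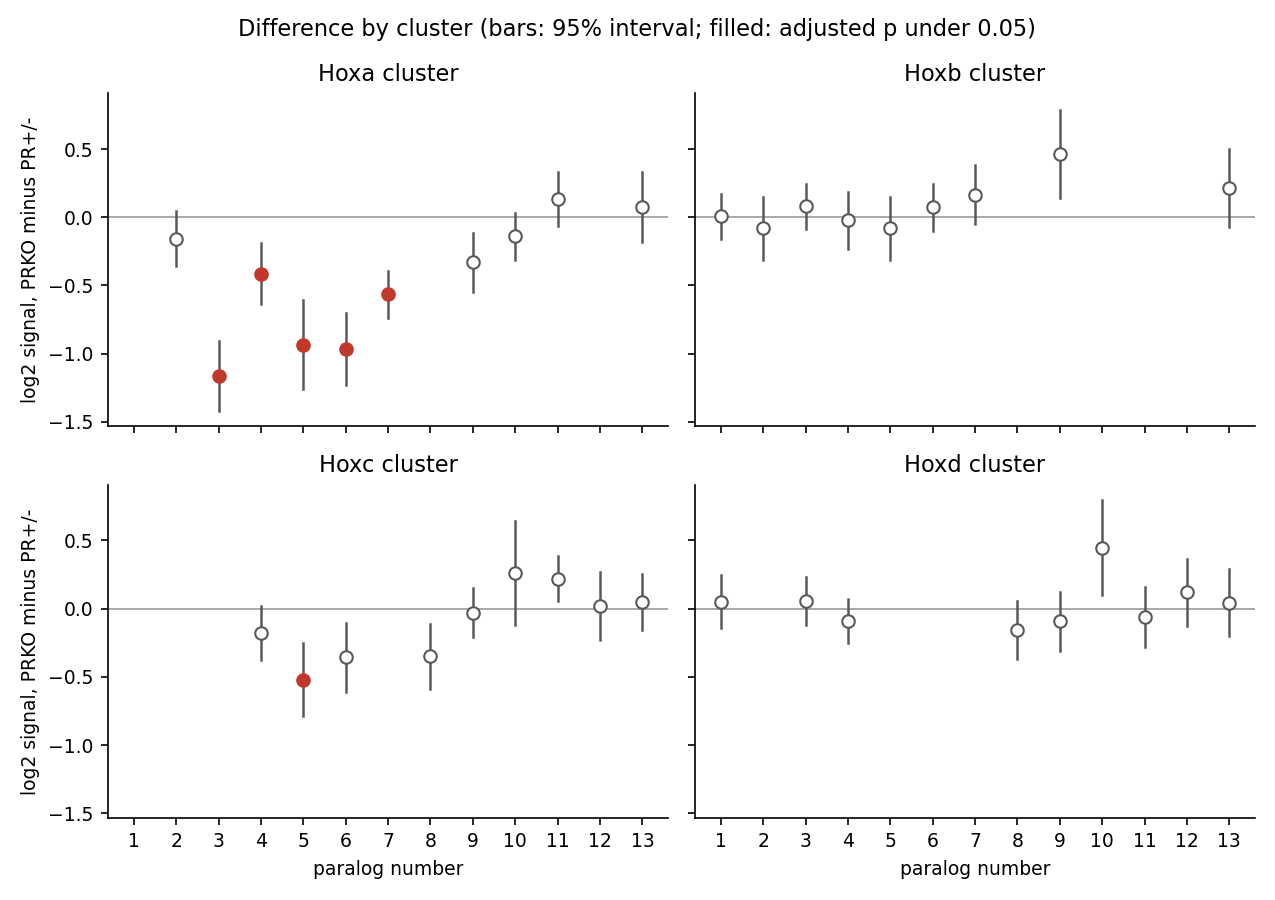
Log2 difference in signal, PRKO minus PR+/- (vertical axis), for each Hox gene by paralog number (horizontal axis) in the 4 clusters, with bars for the 95% interval and filled points for an adjusted p under 0.05. The filled points are Hoxa3 to Hoxa7, between -1.16 and -0.41, and Hoxc5 at -0.52, and the Hoxb and Hoxd panels hold none.

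Whether paralogs differed in their response was tested on each array's difference between both genes, by a two-sided exact permutation test over the 10 arrays. All 38 pairs of measured Hox genes that share a paralog number were compared. This comparison was chosen with the values already known, and p-values were adjusted over the 38 by the Benjamini-Hochberg method. The smallest p that 5 against 5 arrays allow is 0.00794, and 7 pairs reached it and had an adjusted p of 0.0431. Of these, 6 held a member of the Hoxa run with the deeper fall. With any fewer pairs tied at that smallest p, none would have passed the threshold. The 6 pairs reuse genes already seen to separate by genotype, and some of these may share transcripts. They are therefore not independent results. The difference of changes between Hoxa3 and Hoxb3 was -1.24 ± 0.16 on the log2 scale, since Hoxa3 minus Hoxb3 was -1.13 in PRKO and 0.11 in PR+/- oviducts. Hoxa3 also differed from Hoxd3, with a difference of changes of -1.22 ± 0.17.

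The same held for the central numbers of the run. The difference of changes was -0.85 ± 0.17 for Hoxa5 against Hoxb5, -1.04 ± 0.11 for Hoxa6 against Hoxb6, -0.61 ± 0.15 for Hoxa6 against Hoxc6 and -0.73 ± 0.13 for Hoxa7 against Hoxb7 (SE, 5 arrays against 5). Hoxa4 did not differ from its paralogs past the threshold, at -0.39 ± 0.12 against Hoxb4 (exact p = 0.0238, adjusted p = 0.0823), -0.24 ± 0.13 against Hoxc4 (adjusted p = 0.235) and -0.32 ± 0.11 against Hoxd4 (adjusted p = 0.0670). Hoxa5 against Hoxc5 was -0.41 ± 0.14 (adjusted p = 0.0862). The remaining pair past the threshold was Hoxa9 against Hoxb9, with a difference of changes of -0.79 ± 0.16. Hoxa9 minus Hoxb9 was 0.26 in PRKO and 1.06 in PR+/- oviducts.

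**Figure D4:**
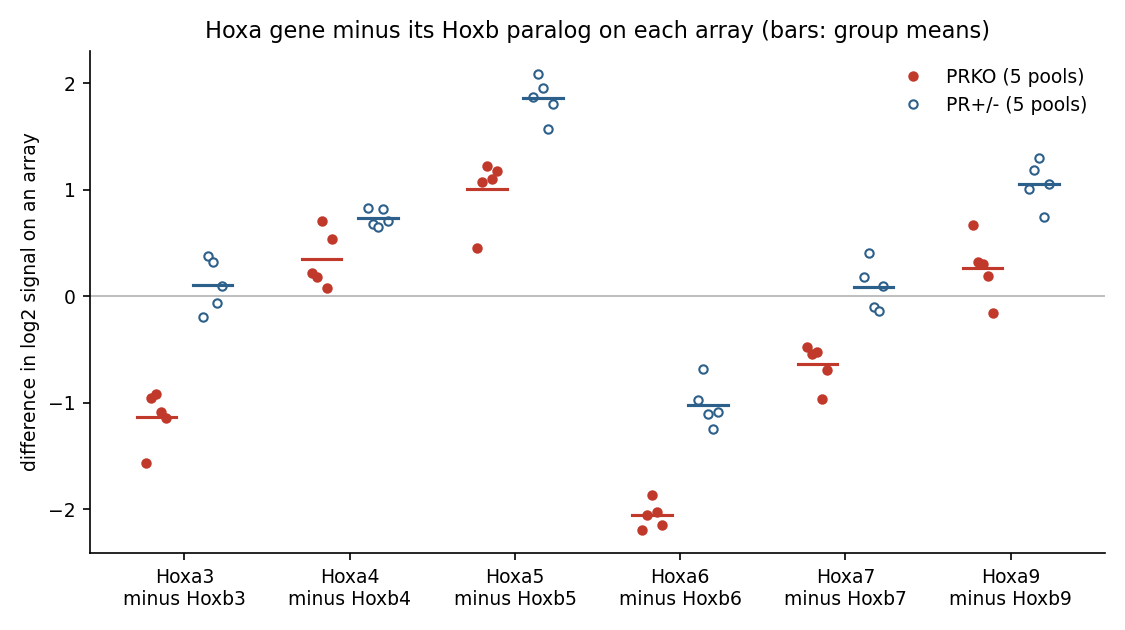
Log2 signal of a Hoxa gene minus that of its Hoxb paralog on the same array (vertical axis) for 6 paralog numbers (horizontal axis), with 1 point per array, PRKO filled on the left and PR+/- open on the right, and a bar at each group mean. The genotypes separate for the pairs of numbers 3, 5, 6, 7 and 9, with group means of -1.13 in PRKO and 0.11 in PR+/- for number 3, and number 4 did not pass.

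No posterior Hox gene passed the test. Of the 16 genes of groups 9 to 13, 11 had a positive and 5 a negative log2 difference, with a median of 0.06, where the median of all genes was 0.03 and 56.1% of all genes were positive. The split was 7 positive to 9 negative under quantile and under cyclic loess normalization, so no shared direction is drawn for these genes. In limma 0 of 16 passed, and at an unadjusted p under 0.05 there were 3 higher, Hoxb9, Hoxd10 and Hoxc11, and 1 lower, Hoxa9. Hoxb9, which acts with its paralogs in mammary gland development, had signals of 4.80, 5.07, 5.41, 5.21 and 5.61 in PRKO oviducts and 4.68, 4.38, 4.71, 5.03 and 4.97 in PR+/- oviducts. Of the PRKO arrays, 4 lay above all PR+/- arrays and replicate 1 lay within their span (log2 difference 0.46 ± 0.15, SE, limma adjusted p = 0.0941). It was called without PRKO replicate 1 (adjusted p = 0.0342) and with the replicate number as a block (0.0380), and it was 0.15 with the interquartile range in the fit (0.780). Hoxb9 stayed uncalled in 19 of the 21 alternative settings that held it, among them the removal of PRKO replicate 5.

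Hoxd10, a gene of limb and motor neuron patterning, had signals of 5.84, 5.30, 6.10, 5.52 and 5.26 in PRKO oviducts and 4.96, 5.07, 4.89, 5.54 and 5.32 in PR+/- oviducts. PRKO replicate 3 and PR+/- replicate 4, both arrays of high ovarian signal, were the highest of their genotypes, and PRKO replicate 1 came next (log2 difference 0.45 ± 0.16, SE, limma adjusted p = 0.133). Without both of those arrays the log2 difference was 0.42 (adjusted p = 0.144). Hoxc11 had signals of 3.31, 3.33, 3.32, 3.17 and 3.47 in PRKO oviducts and 2.98, 3.03, 3.22, 3.15 and 3.10 in PR+/- oviducts, all of them dim (log2 difference 0.22 ± 0.077, adjusted p = 0.120). Hoxc10, a posterior gene of the lumbar and hindlimb domain, spread widely in both genotypes, from 3.47 to 4.13 in PRKO and from 3.16 to 4.09 in PR+/- oviducts (log2 difference 0.26, adjusted p = 0.416).

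The other posterior genes had no unadjusted p under 0.05. Hoxc9, Hoxd9 and Hoxd11 had log2 differences of -0.03, -0.09 and -0.06. Hoxd12, Hoxd13, Hoxc12 and Hoxc13 had 0.12, 0.04, 0.02 and 0.05. Hoxc9, Hoxc12, Hoxc13, Hoxd11, Hoxd12 and Hoxd13 changed sign in at least 1 alternative setting, as did Hoxa13, Hoxb13 and Hoxc10, and no direction is drawn from them. Hoxb13, known from the prostate and tail region, had 3.84 to 4.55 in PRKO and 3.59 to 4.06 in PR+/- oviducts (log2 difference 0.21, adjusted p = 0.370).

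The RNA genes and Evx genes inside the clusters were examined next. Of 11 measured, 0 passed in limma and 0 had an unadjusted p under 0.05, and their median log2 difference was 0.07. They include Evx1 and Evx2, homeobox genes at the posterior ends of the Hoxa and Hoxd clusters, with log2 differences of 0.02 and 0.11. They also include the miR-10 and miR-196 genes, whose microRNAs are known to repress Hox messages. The mature 5p sequences from RefSeq, GRCm38.p6 build, are given because each family is spread over different clusters yet keeps 1 seed, the bases 2 to 8 that pair with targets, which are in capitals.
mmu-miR-10a-5p: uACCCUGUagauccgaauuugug
mmu-miR-10b-5p: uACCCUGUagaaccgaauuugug
mmu-miR-196a-5p: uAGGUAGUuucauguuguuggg
mmu-miR-196b-5p: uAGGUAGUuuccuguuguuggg
The probe sets of Mir10a and Mir10b had mean log2 signals of 2.53 and 2.24 in PRKO and 2.60 and 2.31 in PR+/- oviducts, near the lower end of the table. Those of Mir196a-1, Mir196a-2 and Mir196b had log2 differences of 0.33, 0.27 and 0.01 (limma adjusted p of 0.307, 0.433 and 0.983). The labelling method is made for long transcripts, and mature microRNA was not measured.

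Hox proteins bind DNA with partners of the TALE homeodomain class, and these partner genes did not pass. Among 8 read, limma called 0 in either direction, 0 had an unadjusted p under 0.05, and the median log2 difference was -0.06. Meis1 averaged 9.10 in PRKO and 9.14 in PR+/- oviducts, and Meis2 averaged 8.38 in PRKO and 8.51 in PR+/- oviducts. Pbx2, Pbx3 and Pbx4 had log2 differences of -0.07, 0.07 and -0.13.

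Signals that control Hox expression in embryos moved in single genes. Among the 14 genes read, 1 was higher, 1 lower and 12 missed the threshold, and their log2 differences had a median of -0.0040. Over all genes 1.09% were called higher and 3.87% lower. At an unadjusted p under 0.05, 1 was higher and 3 lower, where 10.1% and 11.1% of all genes were. Wnt7a, a Wnt ligand of Müllerian epithelium that keeps Hoxa10 and Hoxa11 expressed in the uterus, rose. Its mean log2 signal was 4.45 in PRKO and 3.86 in PR+/- oviducts, with no overlap (log2 difference 0.58 ± 0.089, SE, limma adjusted p = 0.00116). Both means were dim, below the median named gene, so the size of this rise is uncertain. Aldh1a1, a retinaldehyde dehydrogenase that makes retinoic acid, fell by 0.33 ± 0.084 (adjusted p = 0.0359), and its genotypes overlapped. Cyp26a1, which breaks retinoic acid down, had a log2 difference of -0.42 (adjusted p = 0.0844). The retinoic acid receptor gene Rarg had -0.20 (adjusted p = 0.153). The Cdx genes, homeobox activators of Hox clusters in the embryo, had differences between -0.01 and 0.01. Cdx2 and Cdx4 were dim, with mean log2 signals of 4.03 and 2.02 in PRKO and 4.02 and 2.02 in PR+/- oviducts. Near background a change in them could be missed.

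Genes reported to depend on Hoxa10 or Hoxa11 in the uterus or in endometrial cells showed 1 fall among 7 measured, and 6 did not pass. Over all genes 3.87% fell. At an unadjusted p under 0.05, 1 was lower and 1 higher. The higher one was Lif, which was dim (log2 difference 0.24, limma adjusted p = 0.228). Itgb3, an integrin subunit that HOXA10 activates in human endometrial cells, had a mean log2 signal of 6.99 in PRKO and 7.68 in PR+/- oviducts with no overlap (log2 difference -0.69 ± 0.10, SE, limma adjusted p = 8.01e-04). Emx2, which HOXA10 represses in human endometrium, had a log2 difference of -0.16 (adjusted p = 0.323), and the prostaglandin receptor genes Ptger3 and Ptger4 had -0.14 and -0.09.

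Cell-type markers were read on the same arrays, because the oviduct is a tube of epithelium, stroma and muscle. All 8 smooth muscle markers fell, by log2 differences of -1.51 to -0.41. The 4 with the smallest adjusted p were desmin (Des, -1.51), enteric actin (Actg2, -1.20), calponin (Cnn1, -0.92) and transgelin (Tagln, -0.60). Over all 8, the mean log2 signal lay between 8.45 and 8.68 on PRKO arrays and between 9.29 and 9.44 on PR+/- arrays. Summed on the linear scale, the list came to 5354 to 6761 in PRKO and 9529 to 10591 in PR+/- oviducts, without overlap. Of 6 stromal fibroblast markers, 1 fell, Pdgfra, a receptor of mesenchymal cells (log2 difference -0.39, limma adjusted p = 0.0317), where 3.87% of all genes fell. At an unadjusted p under 0.05, 2 stromal markers were lower and 1 higher, which was Lum, a matrix proteoglycan gene (log2 difference 0.37, adjusted p = 0.0887), and the mean signal of the list was 9.16 to 9.46 in PRKO and 9.24 to 9.54 in PR+/-. The part of muscle or stroma in the fall of the Hoxa run was not tested. The 6 multiciliated and 5 epithelial and secretory markers measured held 0 calls, with median log2 differences of 0.01 and -0.01, and at an unadjusted p under 0.05 there was 1 multiciliated marker and no epithelial one. Foxj1, Pax8 and Epcam were present with mean log2 signals of 7.05 to 8.97 in PRKO and 7.16 to 8.87 in PR+/- oviducts, so markers of ciliated cells, tract epithelium and epithelia in general were present in the labelled tissue.

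Markers of tissues next to the oviduct were read too. The 3 uterine gland markers had log2 differences of -0.14 to 0.13 and none passed. Of the 8 ovarian markers 0 passed, and 2 were higher at an unadjusted p under 0.05, where 10.1% of all genes were. Their mean signal ranged from 3.88 to 5.14 in PRKO and from 3.77 to 4.89 in PR+/-, with the highest values on PRKO replicate 3 and PR+/- replicate 4. Without those 2 arrays 6 Hox genes were called, Hoxa3 to Hoxa7 and Hoxc8. Mesothelial markers held 1 fall of 4, that of Msln (-0.45), endothelial markers 2 falls of 5, those of Emcn (-0.53) and Pecam1 (-0.27), and immune markers 0 calls of 6. Over all genes 3.87% fell.

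**Figure D5:**
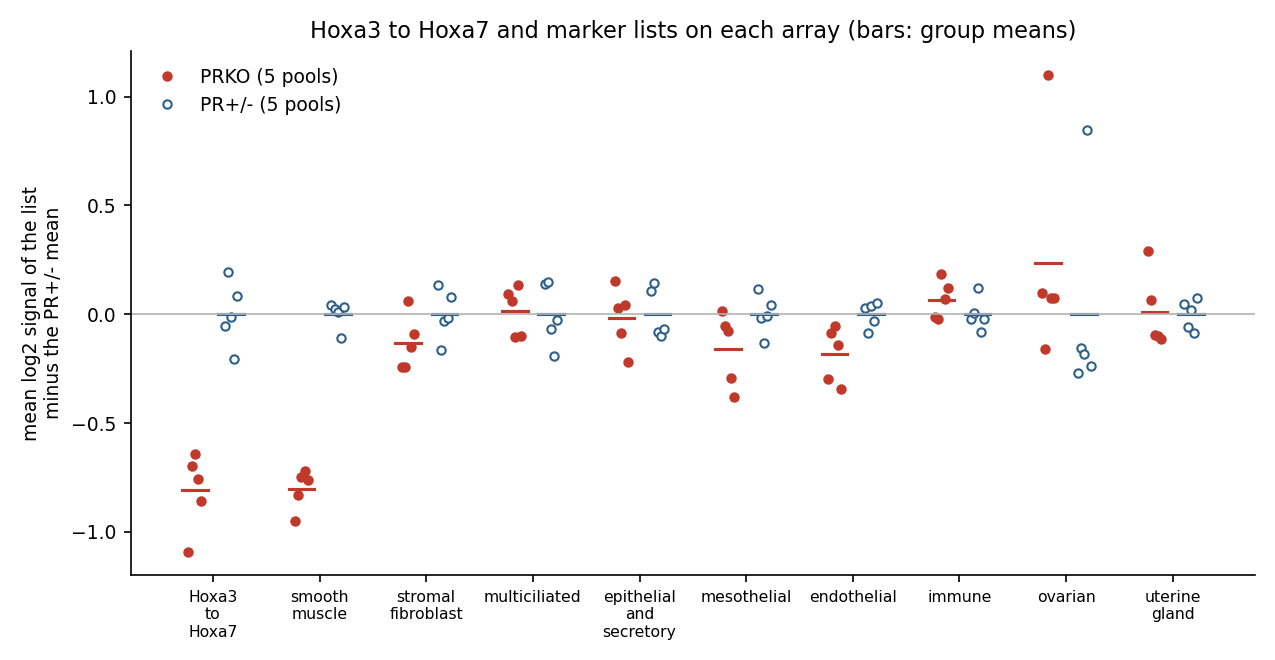
Mean log2 signal over Hoxa3 to Hoxa7 and over each marker list on each array, minus the PR+/- mean (vertical axis), by list (horizontal axis), with PRKO filled on the left, PR+/- open on the right and a bar at each group mean. The genotypes separate for Hoxa3 to Hoxa7 and for the smooth muscle list, and they overlap for the others.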

How the data were processed

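Total RNA of pooled oviducts was labelled with biotin by an Affymetrix whole-transcript kit, per the labels' protocols, and read on 1 array per pool. The deposited table held 35557 rows with 1 value per probe set and array, and Partek is the tool named in the submitters' processing notes. For its version, background correction and scaling, nothing is given in the sources used. The deposited values were taken as log2 signal, which was inferred from their range of 1.09 to 13.6, so fold changes hold only on that reading. Array medians lay within 5.20 to 5.28, and the arrays were not normalized again.

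The 21789 rows paired with 1 gene symbol were reduced to the probe set of highest mean signal per gene, which left 19938 genes. All were tested with limma 3.58.1 in R 4.3.3 (lmFit and eBayes, genotype as the only term, all 10 arrays), with Benjamini-Hochberg adjustment over all genes, and the steps were tested on simulated data. The text names every Hox gene that was called, those with an unadjusted p under 0.05, all posterior members and up to 4 called genes per list, and any other named gene was chosen after its values were seen. The Hox genes, the gene lists and the tests were chosen with earlier results of these data known. The precision is limited by 5 pools per genotype, and the median half-width of the 95% interval was 0.218 log2 units over the Hox genes. The alternatives tried were other normalizations, filters on dim probe sets, other variance models, a covariate, the replicate block and leaving out arrays.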

Additional observations from a re-analysis of the deposited data

Results flagged for a closer look

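Each of the 37 Hox genes and Pgr was examined in each genotype for an array that stood apart by Dixon's test at the 95% level, which chance gives in about 1 of 20 groups, and 6 of 76 groups held one, all of them of Hox genes. In PRKO oviducts, Hoxa2 was low in replicate 1, at 3.78 where the other arrays had 4.03 to 4.13. Hoxa9 was high in PRKO replicate 3, at 5.71 where the others had 5.39 to 5.46, and this array is 1 of the 2 with a high ovarian signal. Without it the log2 difference of Hoxa9 was -0.39 (limma adjusted p = 0.0515).

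Hoxb5 had an array apart in both genotypes. PRKO replicate 5 was low, at 5.85 where the others had 6.33 to 6.46. PR+/- replicate 5 was high, at 6.55 where the others had 6.28 to 6.34. Hoxd12 was low in PRKO replicate 2, at 2.83 where the others had 3.22 to 3.35. Hoxd3 was low in PR+/- replicate 3, at 5.23 where the others had 5.43 to 5.48.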

How the results depend on the processing

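Across 22 alternative settings Hoxa3, Hoxa6 and Hoxa7 stayed called, Hoxa5 was lost in 1, Hoxc5 in 9 and Hoxa4 in 11. With the interquartile range of every array as a covariate, 3 Hox genes and 322 genes in all were called (58 rose, 264 fell), against 6 and 988. This covariate largely follows genotype, so a call lost in that fit cannot be assigned to either. Without both arrays of high ovarian signal 562 genes were called. With 1 array left out, 581 to 1165 genes and 4 to 7 Hox genes were called, with the lowest total, 581, without PR+/- replicate 1 and 598 without PR+/- replicate 2, and the median Hox difference lay between -0.07 and -0.0040. That median was -0.093 without the dimmest 30% of probe sets, where fewer Hox genes entered, and -0.18 without the dimmest 50%. The median of all genes moved by less than 0.1 under each scaling. The labels number the replicates and state no pairing of pools between genotypes. Pairing was examined on each array's deviations from its genotype mean, gene by gene. These deviations had correlations of -0.01 to 0.16 between same-numbered arrays, and 2 of 5 PRKO arrays matched their own number best. With the replicate number as a block 8 Hox genes (7 fell and 1 rose) and 1042 genes were called. The Pgr difference stayed called, from -1.10 to -1.02.

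Several uncalled genes near 0 changed sign, and the cause was not tested. Quantile normalization gave Hoxa13 -0.024, Hoxc12 -0.080, Hoxc13 -0.041 and Hoxd13 -0.055. Cyclic loess gave Hoxa13 -0.022, Hoxc12 -0.078, Hoxc13 -0.047 and Hoxd13 -0.055. Hoxc12 was -0.011 with median centring and -3.0e-04 with array weights. The covariate gave Hoxb13 -0.10, Hoxc9 0.020, Hoxc10 -0.025, Hoxd11 0.019, Hoxd12 -0.12 and Hoxd13 -0.18. With 1 array left out, Hoxc12 lay between -0.095 and 0.082, Hoxd11 between -0.12 and 0.0079, Hoxd13 between -0.034 and 0.15, and Hoxc9 between -0.092 and 0.0055. Hoxd13 was -0.039 without the arrays of high ovarian signal. Without PRKO replicates 1 and 5, Hoxc9 was 2.7e-04, Hoxc12 -0.050, Hoxc13 -0.0059, Hoxd11 0.031 and Hoxd13 -0.018.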

Other observations

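Genes that lie beside the Hox clusters were read for comparison with the Hoxa run. Of 15 measured, 0 passed in limma, 1 was lower at an unadjusted p under 0.05, and their median log2 difference was 0.02. Over all genes 4.96% were called in either direction and 11.1% were lower at that unadjusted p. A list of 15 genes is too short to tell its counts apart from these shares. Skap2 and Snx10, adapter and sorting proteins encoded beyond the anterior end of the Hoxa cluster, had log2 differences of 0.06 and -0.15. Hibadh and Tax1bp1, beyond its posterior end, had -0.07 and -0.10. Each of these 4 overlapped between genotypes.

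Genes of the Polycomb and trithorax groups, which maintain silent and active Hox states, did not pass. Of 18 measured, 0 rose and 0 fell in limma, 0 had an unadjusted p under 0.05, and the log2 differences lay between -0.13 and 0.15. Ezh2 and Suz12, subunits of the complex that methylates histone H3, had 0.05 and 0.15.

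Other homeobox and paired-box genes of the tract gave 0 calls of 13 measured. At an unadjusted p under 0.05, 4 were higher in PRKO oviducts, Lhx1, Msx2, Dlx5 and Prrx2, with log2 differences of 0.29, 0.30, 0.23 and 0.23 and limma adjusted p of 0.138, 0.232, 0.182 and 0.148. Over all genes 10.1% were higher at that unadjusted p, and no direction is drawn from so short a list. Pax2 and Pax8, factors of Müllerian epithelium, had 0.01 and -0.01.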
